A study of Mus musculus with 6 samples.

Results

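The genes described here are 10 widely used markers of astrocytes, measured in the spinal cord of mouse embryos at E13.5, a stage counted in days of gestation. They are the enzymes Aldh1l1, Aldoc and Glul, the glutamate transporters Slc1a3 and Slc1a2, the lipid-binding protein Fabp7, the calcium-binding protein S100b, the gap junction protein Gja1, the membrane protein Mmd2 and the homeodomain protein Hopx. They were taken by symbol from a list of known markers, out of the 55433 genes in each count file. The choice was made with earlier results of these data known. All 10 were found, all 10 passed the filter on low counts and none was at 0 in any library. The series holds 6 cords of strain C57BL/6J. In 3 of them, labelled control, the genotype was NFIA-ff, and in the other 3, labelled NFIAcKO, it was NFIA-ff with Nestin-cre. NFIA-ff was thus shared by both groups and only the NFIAcKO embryos carried cre, with no embryo that had cre alone. Nestin-cre drives the recombinase in neural progenitors, so the cord's blood vessels, meninges and microglia lie outside most of its range. The submitters studied the role of the transcription factor NFIA in motor neurons of the developing cord.

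Astrocytes arise from radial glia, the progenitors of the cord, after the main period of neuron birth. Among its known roles, NFIA helps to start the formation of glia. Several of the 10 genes, among them Slc1a3 and Fabp7, are already transcribed in radial glia, so at this age they do not mark astrocytes alone. The mature cells clear glutamate from synapses through the transporters encoded by Slc1a3 and Slc1a2, and turn it into glutamine with the enzyme encoded by Glul.

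Counts assigned to genes summed to between 43393053 and 51465763 per library. Levels are CPM, the count divided by the library total and scaled up to a common size, here with totals adjusted by the TMM method. The groups were compared by edgeR's quasi-likelihood F test over 17711 genes, and a gene is said to rise or fall at a Benjamini-Hochberg adjusted p under 0.05. A negative fold change means a lower level in the NFIAcKO group than in the control group. The labels name no litters, and where nothing shows separate origins p-values measure the spread between these libraries only. Control replicate 3 stood apart from the other controls for these genes. It was the lowest control for 8 of the 10 markers, and control replicate 2 was the highest for 7. Replicate 2 of each group had Xist and the other 4 libraries had almost none (up to 0.0633 CPM), so both groups held both sexes.

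Nfia, the targeted gene, was above its control level in the NFIAcKO group. It stood at 60.1, 59.1 and 79.2 CPM in control replicates 1, 2 and 3, and 106, 108 and 119 CPM in NFIAcKO replicates 1, 2 and 3. All 3 libraries labelled NFIAcKO lay above all 3 controls (log2 fold change 0.75, SE 0.11, adjusted p = 0.0031). Reads from exons outside the deleted part still count toward Nfia, so this count is no check of the deletion. Of the other NFI genes, Nfic rose (log2 fold change 0.37, adjusted p = 0.034, but 0.118 once the length trend described below was removed) and Nfib and Nfix were not called. Every direction below is relative to the labels.

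Of the 10 astrocyte markers, 7 fell, 1 rose and 2 did not pass the test. Aldh1l1, Aldoc, Slc1a3, Mmd2, Hopx, Fabp7 and S100b fell, Slc1a2 rose, and Glul and Gja1 were not called. Over all genes tested, 6.08% fell and 7.86% rose, or 1076 and 1392 genes. With upper quartile scaling 1434 fell and 1057 rose over all genes, and the 10 markers had the same calls. The median log2 fold change was -0.67 over the 10 markers and -0.01 over all genes. In the 7 that fell, every library labelled NFIAcKO lay below every control, an arrangement found in 16.1% of all genes tested, and the 3 NFIAcKO values of Slc1a2 lay above all controls, as for 17.3%. The summed level of the 10 markers was 2048 to 2645 CPM in the libraries labelled control and 1797 to 1916 CPM in those labelled NFIAcKO. In RNA from a whole cord, fewer cells of a type and less RNA per cell cannot be told apart.

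**Figure D1:**
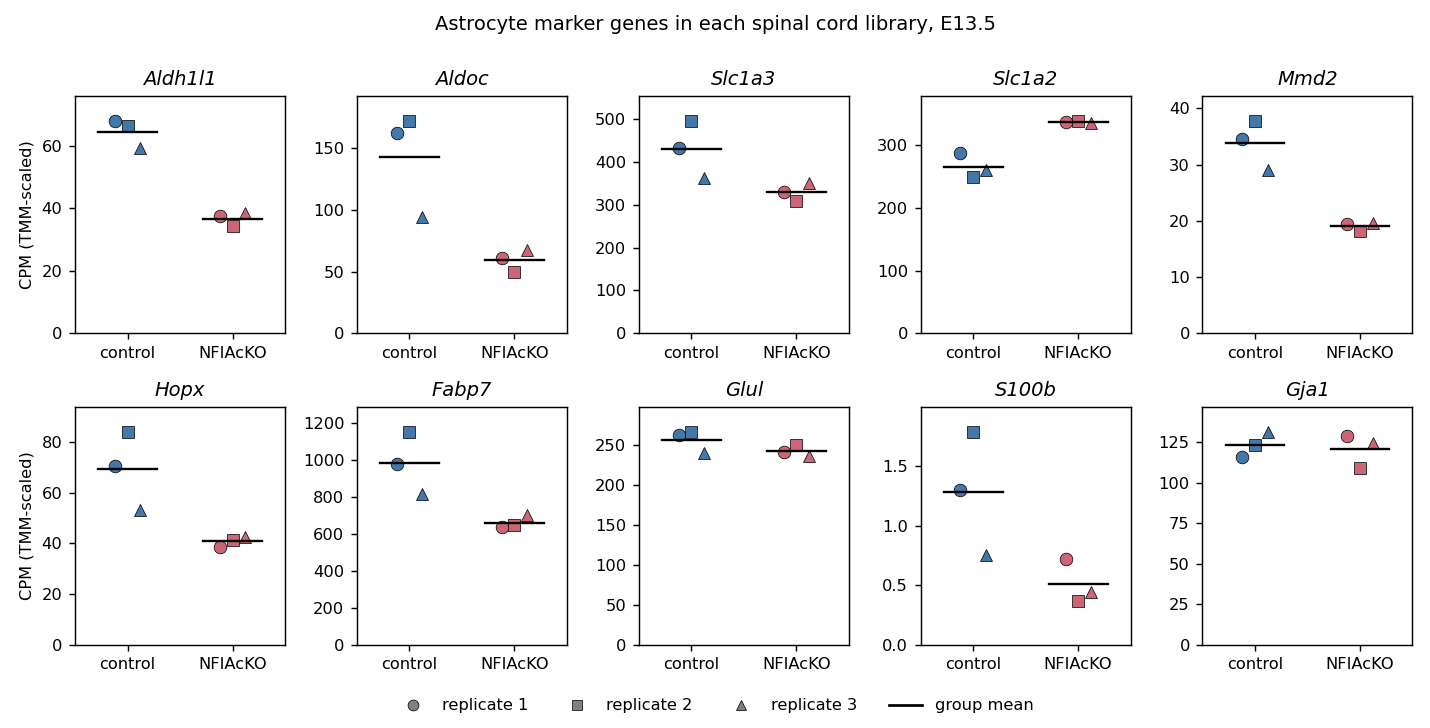
Level of each of the 10 astrocyte markers in CPM (vertical axis, from 0) in the 3 control and 3 NFIAcKO libraries, with a symbol for each replicate and a line at the group mean. In 7 panels all NFIAcKO points lie below all control points, in Slc1a2 they lie above, and in Glul and Gja1 the groups overlap.

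Fold changes in these libraries followed the summed exonic length of genes, and the length of each marker belongs beside its value. This length can exceed that of any transcript. Gja1 has 10257 bp of exons and a longest transcript of 3889 bp, and Slc1a3 has 8537 and 4435 bp. Among the shortest eighth of tested genes, with 56 to 1484 bp of annotated exons, 11.3% fell and 0.320% rose, and this eighth holds Fabp7 and S100b. Among the longest eighth, which holds Slc1a2 and Gja1, 0.960% fell and 32.9% rose. When a trend with length and GC content was removed from each library, 4 of the 10 markers fell and 0 rose, against 3.87% and 3.82% of all genes tested. Before adjustment 7 of the 10 were lower and 0 higher at p under 0.05 in that edgeR fit. The shares above are at an adjusted p under 0.05. The share of all genes at an unadjusted p under 0.05 is not given, for this count or those below. The 4 that fell were Aldh1l1, Slc1a3, Mmd2 and Hopx. The median over the 10 was then -0.51, and 0.01 over all genes.

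**Figure D2:**
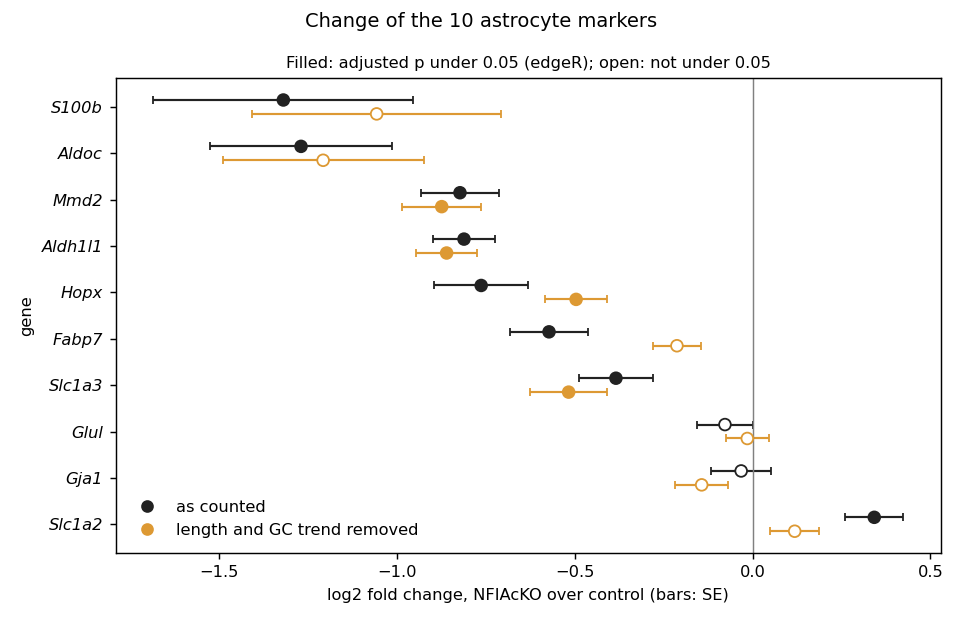
Log2 fold change of each marker, NFIAcKO over control, with bars of 1 SE, as counted (black) and with the length and GC trend removed (orange); filled points have an adjusted p under 0.05 in edgeR. As counted 8 points are filled, and with the trend removed the filled ones are Aldh1l1, Slc1a3, Mmd2 and Hopx.

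**Figure D3:**
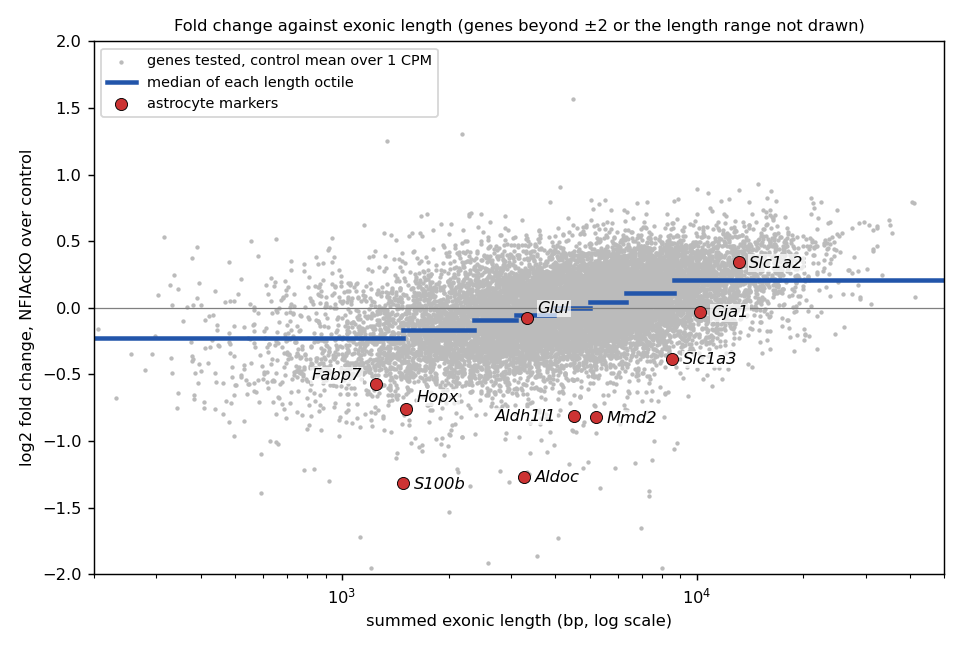
Log2 fold change of tested genes with a control mean over 1 CPM against their summed exonic length in bp (log axis), with the median of each eighth of all tested genes by length in blue and the astrocyte markers in red. The median runs from -0.23 in the shortest eighth to 0.21 in the longest. Slc1a2 lies above the line at its length, Glul close to it and the others below it, among them Gja1, which was not called.

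NFI proteins bind as dimers to a palindrome with TTGGC on each arm, and a single arm is often written TTGGCA. Both were searched on both strands in the 250 bases before each RefSeq transcription start, for 12 start windows of the 10 markers (assembly GRCm38.p6). The palindrome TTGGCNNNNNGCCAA was in 0 of the 12 windows and in 0.0365% of all 32851 windows. The single-arm motif TTGGCA was in 3 windows, those of Aldoc, Mmd2 and S100b, which all fell. The windows of Aldh1l1, Slc1a3, Hopx and Fabp7, which also fell, did not hold it. The RefSeq starts used for Aldh1l1 (90550793) and Slc1a2 (102706438) lie far inside the gene spans given below. The bases before the 5′ ends of those 2 spans were not searched. TTGGCA was in 12.3% of all windows and in 10.1% of the windows of genes tested. It was in 10.2% of the windows of genes that fell and in 8.93% of those of genes that rose. A match is a string of letters and not a measured site. The stretches around the matches are shown because they are the places in these windows where TTGGCA occurs. The motif is in capitals, 5′ to 3′ on the gene's strand. The arm TTGGC without the final A was not searched for by itself. The Aldoc stretch is chr11:78322900-78322959 on the plus strand, with its motif 146 bases before the RefSeq start at 78323073. The Mmd2 stretch is chr5:142608825-142608884 on the minus strand, with its motif 105 bases before the start. The S100b stretch is chr10:76253790-76253835 on the plus strand, with its motif 19 bases before the start.
Aldoc: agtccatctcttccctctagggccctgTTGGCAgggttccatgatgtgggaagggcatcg
Mmd2: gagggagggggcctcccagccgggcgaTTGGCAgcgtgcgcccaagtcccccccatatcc
S100b: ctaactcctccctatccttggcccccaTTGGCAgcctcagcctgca

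Among the enzymes, Aldh1l1 and Aldoc fell and Glul was not called. Aldh1l1 encodes a folate enzyme that oxidises formyl-tetrahydrofolate and is a broad astrocyte marker. Its level was 67.9, 66.2 and 59.2 CPM in control replicates 1, 2 and 3, and 37.4, 34.4 and 38.4 CPM in NFIAcKO replicates 1, 2 and 3. The controls lay close together and every NFIAcKO library lay well below the lowest of them. The group means differed 1.75-fold (log2 fold change -0.81, SE 0.09, adjusted p = 0.0008). Dropping any single library kept the adjusted p at or under 0.0348, and the call was also made with the length and GC trend removed (-0.86, adjusted p = 0.00086). Of the 10 markers, Aldh1l1 was the only one that also passed each time a library was dropped after the trend had been removed (6 of 6 fits). The gene (ENSMUSG00000030088.15) spans 90486427 to 90600203 on chromosome 6 of GRCm38, plus strand, with 4516 bp of exons. Gm15756, on the opposite strand, overlaps 11.1% of those exons, and its count was at most 1 in any library.

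Aldoc encodes aldolase C, the brain form of a glycolytic enzyme. Its level was 162, 172 and 94.6 CPM in control replicates 1, 2 and 3, and 60.6, 49.9 and 67.3 CPM in NFIAcKO replicates 1, 2 and 3. Control replicate 3 was nearer to the NFIAcKO libraries than to the other controls, although the groups did not overlap. The means differed 2.41-fold (log2 fold change -1.27, SE 0.26, adjusted p = 0.032). The controls had a coefficient of variation of 29.5%, against a median of 10.8% over all genes. The call held when control replicate 3 was dropped. Dropping control replicate 1 or 2 gave an adjusted p of 0.0804 or 0.187, and dropping NFIAcKO replicate 1, 2 or 3 gave 0.0846, 0.0615 or 0.0578, so the call was lost. It was also lost with the replicate number as a block (adjusted p = 0.0623) and with the trend removed (0.0798). Aldoc (ENSMUSG00000017390.15) spans 78322968 to 78327781 on chromosome 11, plus strand.

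The ubiquitous aldolase gene Aldoa served as a reference within each library, since a ratio of genes does not depend on library scaling. The count of Aldoc was 0.517, 0.531 and 0.331 times that of Aldoa in control replicates 1, 2 and 3, and 0.214, 0.169 and 0.266 times in NFIAcKO replicates 1, 2 and 3. The ratio was lower in every library labelled NFIAcKO, by 1.08 on the log2 scale. In this and the other 3 ratios below, the exact two-sided permutation test of 3 against 3 libraries gave p = 0.1 (adjusted p = 0.1), the smallest it can give.

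Glul encodes glutamine synthetase, which forms glutamine from glutamate and ammonia. Its level was 263, 267 and 240 CPM in control replicates 1, 2 and 3, and 242, 251 and 236 CPM in NFIAcKO replicates 1, 2 and 3. The groups overlapped and the difference was within their spread. The log2 fold change was -0.08 (95% interval -0.25 to 0.09, adjusted p = 0.55). Glul (ENSMUSG00000026473.15) spans 153899944 to 153909723 on chromosome 1, plus strand. Teddm2 overlaps 3.49% of its exons from the opposite strand, with 16 to 41 counts per library.

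As counted, the pair of glutamate transporters moved in opposite directions. Slc1a3 encodes GLAST, the transporter of radial glia and young astrocytes. Its level was 433, 495 and 363 CPM in control replicates 1, 2 and 3, and 329, 310 and 352 CPM in NFIAcKO replicates 1, 2 and 3. Control replicate 3 lay just above the highest NFIAcKO library. The log2 fold change was -0.38 (SE 0.10, adjusted p = 0.027), and -0.52 with the trend removed (adjusted p = 0.024). When libraries were dropped in turn, the call held only for control replicate 3. The adjusted p was 0.0914 or 0.0723 after dropping control replicate 1 or 2, and 0.112, 0.113 or 0.0633 after dropping NFIAcKO replicate 1, 2 or 3. The gene (ENSMUSG00000005360.14) lies on the minus strand of chromosome 15 from 8634124 to 8710764 and has 8537 bp of exons. In the eighth of genes of similar length 2.51% fell.

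Slc1a2 encodes GLT-1, the main glutamate transporter of mature astrocytes. Its level was 288, 250 and 260 CPM in control replicates 1, 2 and 3, and 337, 338 and 335 CPM in NFIAcKO replicates 1, 2 and 3. The NFIAcKO libraries were within a few CPM of each other and above all controls. The log2 fold change was 0.34 (SE 0.08, adjusted p = 0.015). In the eighth of genes of similar length 32.9% rose. With 13133 bp of exons Slc1a2 is the longest of the 10, and with the trend removed its log2 fold change was 0.12 (adjusted p = 0.31) and the groups overlapped. Dropping NFIAcKO replicate 1, 2 or 3 also ended the call, with an adjusted p of 0.0785, 0.0549 or 0.0652. Slc1a2 (ENSMUSG00000005089.15) spans 102658659 to 102790784 on chromosome 2, plus strand. The antisense gene Gm13872 overlaps 1.44% of its exons and had at most 2 counts.

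Slc1a3 was counted 1.51, 1.98 and 1.40 times as often as Slc1a2 in control replicates 1, 2 and 3, and 0.974, 0.915 and 1.05 times as often in NFIAcKO replicates 1, 2 and 3. The ratio was thus above 1 in every control and close to 1 in every library labelled NFIAcKO, a difference of -0.72 on the log2 scale. Per kb of exons, Slc1a3 remained the higher of the pair in all 6 libraries, at 2.15 to 3.05 times the level of Slc1a2 in controls and 1.41 to 1.62 times in NFIAcKO.

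The membrane protein Mmd2 and the homeodomain protein Hopx fell by similar amounts as counted, but not with the trend removed. Mmd2 belongs to the progestin and adipoQ receptor family and is a known astrocyte-lineage gene downstream of NFIA in cord development. Its level was 34.6, 37.8 and 29.0 CPM in control replicates 1, 2 and 3, and 19.5, 18.2 and 19.7 CPM in NFIAcKO replicates 1, 2 and 3. The NFIAcKO libraries lay together and far below the lowest control (log2 fold change -0.82, SE 0.11, adjusted p = 0.0025). Mmd2 passed whichever library was dropped (6 of 6 fits) and after the trend was removed (-0.87, adjusted p = 0.0065). Its relative Mmd, which is expressed more broadly, was not called. The count of Mmd2 was 0.240, 0.253 and 0.230 times that of Mmd in control replicates 1, 2 and 3, and 0.141, 0.130 and 0.138 times in NFIAcKO replicates 1, 2 and 3. Mmd2 (ENSMUSG00000039533.8) spans 142562358 to 142608800 on chromosome 5, minus strand.

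Hopx encodes a homeodomain protein without DNA binding of its own that marks astrocyte-producing progenitors in several parts of the nervous system. Its level was 70.7, 84.0 and 53.3 CPM in control replicates 1, 2 and 3, and 38.6, 41.2 and 42.8 CPM in NFIAcKO replicates 1, 2 and 3. The controls were spread widely and all lay above the narrow NFIAcKO group. The log2 fold change was -0.76 (SE 0.13, adjusted p = 0.0068), and -0.50 with the trend removed (adjusted p = 0.015). Whichever library was dropped, the adjusted p of Hopx was at most 0.0413. Hopx (ENSMUSG00000059325.14) spans 77086988 to 77115121 on chromosome 5, minus strand, with 1516 bp of exons. In the eighth of genes by length that holds Hopx, 12.3% fell. Hopxos overlaps 27.2% of these exons from the opposite strand, with 31 to 74 counts against 1870 to 4424 for Hopx.

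Fabp7, the brain lipid-binding protein of radial glia and young astrocytes, was the most abundant of the 10. Its level was 976, 1149 and 817 CPM in control replicates 1, 2 and 3, and 633, 645 and 700 CPM in NFIAcKO replicates 1, 2 and 3. All controls lay above all libraries labelled NFIAcKO, and the means differed 1.49-fold (log2 fold change -0.57, SE 0.11, adjusted p = 0.0075). The call was lost without NFIAcKO replicate 1 (adjusted p = 0.0517). With 1250 bp of exons Fabp7 is the shortest of the 10, and with the trend removed the difference was -0.21 (adjusted p = 0.072). The trend-removed levels were 876, 877 and 832 CPM in the controls and 745, 701 and 785 CPM in the NFIAcKO libraries, still without overlap. The control coefficient of variation went from 16.9% to 3.00% with that step. Relative to Fabp5, a close family member, Fabp7 was counted 4.06, 4.41 and 3.92 times as often in control replicates 1, 2 and 3, and 3.30, 3.12 and 3.59 times in NFIAcKO replicates 1, 2 and 3. This ratio takes no account of length, and with the trend removed the log2 fold change was -0.21 for Fabp5 as for Fabp7. Fabp7 (ENSMUSG00000019874.11) spans 57784881 to 57788450 on chromosome 10, plus strand.

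S100b, a calcium-binding protein of mature glia, was the least abundant of the 10. It had 57, 94 and 35 counts in control replicates 1, 2 and 3, and 35, 17 and 21 counts in NFIAcKO replicates 1, 2 and 3. Control replicate 3 and NFIAcKO replicate 1 were almost level, at 0.753 and 0.723 CPM, with exact Poisson 95% intervals of 0.524 to 1.05 and 0.504 to 1.01 that cover counting error only. The log2 fold change was -1.32 (SE 0.37, adjusted p = 0.029), and -1.06 with the trend removed (adjusted p = 0.078). With the trend removed the groups overlapped, with NFIAcKO replicate 1 at 0.797 CPM and control replicate 3 at 0.756 CPM. When libraries were dropped in turn, S100b was called only for control replicate 3. The adjusted p was 0.0844 or 0.161 after dropping control replicate 1 or 2, and 0.053, 0.108 or 0.108 after dropping NFIAcKO replicate 1, 2 or 3. S100b (ENSMUSG00000033208.7) spans 76253853 to 76261159 on chromosome 10, plus strand.

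Gja1 encodes connexin 43, the main gap junction protein of astrocytes, which radial glia, meninges and vessel walls also make. Its level was 116, 123 and 131 CPM in control replicates 1, 2 and 3, and 129, 109 and 124 CPM in NFIAcKO replicates 1, 2 and 3. The groups overlapped, with a log2 fold change of -0.03 (95% interval -0.21 to 0.15, adjusted p = 0.84). Control replicate 3, the lowest control for most of the markers, was the highest for Gja1. Gja1 (ENSMUSG00000050953.10) spans 56377330 to 56402513 on chromosome 10, plus strand.

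**Figure D4:**
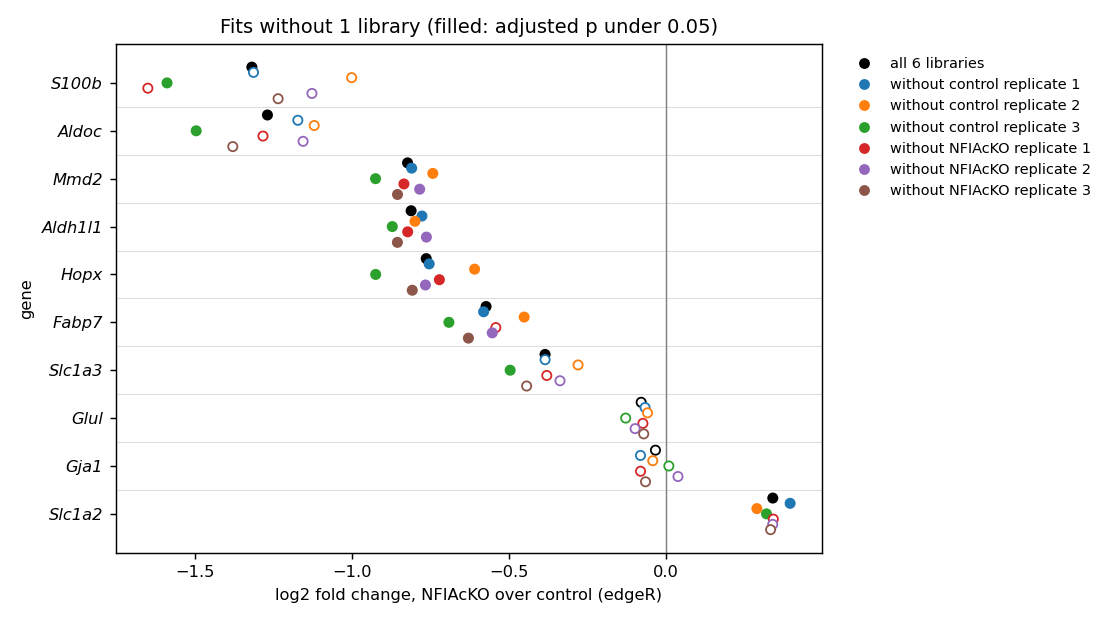
Log2 fold change of each marker with all 6 libraries (black) and with each library left out in turn (colours); filled points have an adjusted p under 0.05 in edgeR. Aldh1l1, Mmd2 and Hopx are filled in all 6 fits with a library left out. Of those 6 fits, Aldoc, Slc1a3 and S100b are filled only in the fit without control replicate 3 (green).

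The names of the deposited tables carry a number that no source used here explains. Control replicate 3 and NFIAcKO replicate 3 share a number, and the other 4 libraries share another. Between those 4 libraries, with 2 per group, the log2 difference was -0.90 for Aldh1l1, -1.60 for Aldoc, -0.54 for Slc1a3 and -0.73 for Fabp7. Between the replicates 3 it was -0.63 for Aldh1l1, -0.49 for Aldoc, -0.05 for Slc1a3 and -0.22 for Fabp7. In the same order Mmd2 differed by -0.94 and -0.56, Hopx by -0.95 and -0.32, and S100b by -1.48 and -0.71. Slc1a2 differed by 0.33 and 0.37. For 8 of the 10 markers the difference was smaller between the replicates 3, and each direction was the same under both numbers. With 1 library per group under that number, the contrast between the numbers has no test. With this number as a block, 9 of the 10 calls were as before and Aldoc was lost (adjusted p = 0.055).

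Per kb of exons the markers covered a wide range of levels, and their order was similar in both groups. In the libraries labelled control the mean CPM per kb was 785 for Fabp7, 77.2 for Glul, 50.4 for Slc1a3, 45.7 for Hopx, 43.8 for Aldoc, 20.2 for Slc1a2, 14.3 for Aldh1l1, 12.04 for Gja1, 6.51 for Mmd2 and 0.862 for S100b. Neighbours in this order did not overlap, except Slc1a3 with Hopx and Hopx with Aldoc. In the libraries labelled NFIAcKO it was 528 for Fabp7, 73.2 for Glul, 38.6 for Slc1a3, 27.0 for Hopx, 25.6 for Slc1a2, 18.2 for Aldoc, 11.8 for Gja1, 8.13 for Aldh1l1, 3.68 for Mmd2 and 0.345 for S100b. Here only Hopx and Slc1a2 overlapped. Per kb of exons, Slc1a2 thus stood above Aldoc, and Gja1 above Aldh1l1, in the libraries labelled NFIAcKO, and below them in the controls. The order depends on the length used: per kb of the longest transcript, Slc1a3 (97.1) came before Glul (91.9) and Gja1 (31.7) before Slc1a2 (22.9) in the controls. By that length Gja1 stood above Aldh1l1 in both groups, at 31.7 against 15.4 in controls and 31.0 against 8.79 in NFIAcKO.

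**Figure D5:**
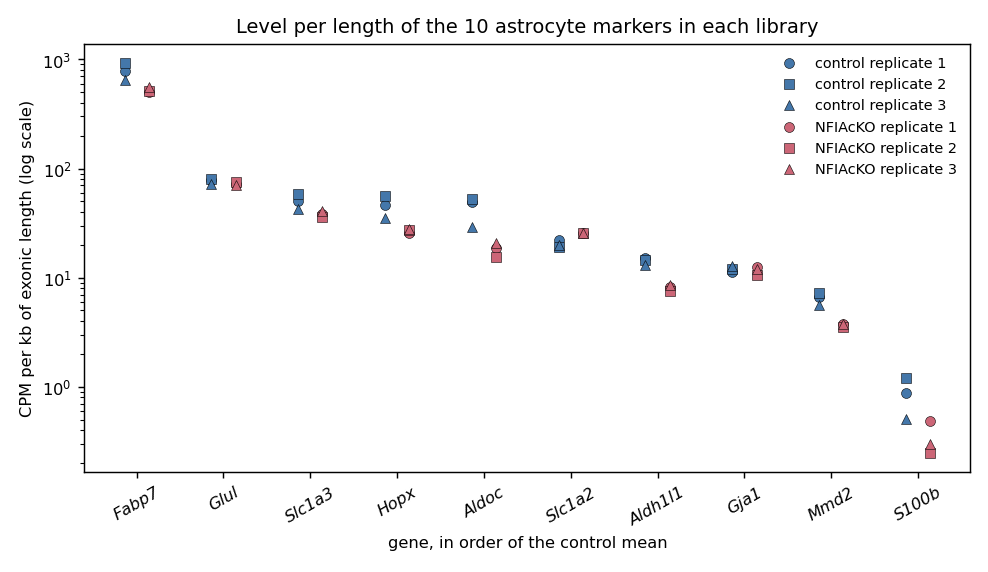
CPM per kb of exonic length (log axis) of each marker in each of the 6 libraries, ordered by the control mean, with controls in blue and NFIAcKO libraries in red. Levels run from 785 for Fabp7 to 0.862 for S100b in the control means, and the red points lie below the blue ones for 7 genes.

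The genes whose pattern over the 6 libraries was most like that of Aldh1l1 or Aldoc were ranked by the root mean square difference of centred log2 CPM among 12408 genes. For Aldh1l1 the nearest was Mmd2 (0.0674), then Cd53 (0.0833), a tetraspanin of leukocytes. Selenbp1, a selenium-binding protein (0.0977), and Ttpa, the tocopherol transfer protein (0.105), were also among the nearest 5. For Aldoc the nearest was Rlbp1, a retinaldehyde-binding protein of glia (0.0694), followed by Inka2 (0.112), the cysteine-pathway enzyme Cbs (0.136), the metalloproteinase inhibitor Timp4 (0.152) and the aldo-keto reductase Akr1c13 (0.158). Rlbp1 stood at 25.4, 26.3 and 15.6 CPM in control replicates 1, 2 and 3 and at 9.19, 8.27 and 9.72 CPM in NFIAcKO replicates 1, 2 and 3. It shared with Aldoc the low value of control replicate 3. These distances are a description over 6 libraries that include the difference between groups.

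A separate list of 24 other astrocyte genes had 22 that were tested. Of these, 7 fell, 0 rose and 15 were not called in edgeR, against 6.08% that fell over all genes tested. For rises in this list, DESeq2 called 1 and limma-voom 0, and 1 gene was under 0.05 before adjustment in edgeR. The median log2 fold change of the 22 was -0.27. Among the 7 that fell were Apoe, Hepacam, Slc7a10, Id3, Mlc1 and Cst3. Apoe, the lipoprotein of astrocytes, stood at 137, 147 and 113 CPM in control replicates 1, 2 and 3 and at 87.8, 84.7 and 96.2 CPM in NFIAcKO replicates 1, 2 and 3 (log2 fold change -0.57, adjusted p = 0.0053). Hepacam, an adhesion protein of astrocyte processes, had a log2 fold change of -0.69 (adjusted p = 0.0088), and Slc7a10, a transporter of serine and alanine, of -1.21 (adjusted p = 0.011). With the trend removed 5 of the 22 fell, against 3.87% of all genes tested. Apoe, Hepacam, Slc7a10 and Id3 were among the 5. Sox9, a transcription factor of glial progenitors, did not pass (log2 fold change 0.40, adjusted p = 0.054). Gfap, an intermediate filament of mature astrocytes, had 2 to 7 counts per library, and the water channel gene Aqp4 stood at 1.94 to 3.51 CPM.

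Genes of radial glia, from which astrocytes form, were tested as a list of 15, of which 5 rose and 1 fell. Over all genes tested 7.86% rose and 6.08% fell. The median exonic length of the list was 6416 bp, and in the eighth of genes from 6326 to 8654 bp 14.4% rose. Nes, an intermediate filament of progenitors, rose with a log2 fold change of 0.47 (adjusted p = 0.029). Cdh2, the adhesion protein of the neuroepithelium, rose by 0.36 (adjusted p = 0.021), and Notch3, Notch1 and Ptprz1 rose as well. Hes5, a target of Notch signalling, fell by 0.38 (adjusted p = 0.044). With the trend removed 0 of the 15 were called in edgeR, while 4 were higher and 1 lower at an unadjusted p under 0.05. The summed level of the list was 2472, 2337 and 3024 CPM in control replicates 1, 2 and 3, and 2966, 3380 and 3016 CPM in NFIAcKO replicates 1, 2 and 3. Control replicate 3 was thus level with the libraries labelled NFIAcKO for this sum, and it was also the control with the lowest sum of the 10 markers.

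In the genes around the glutamate transporters and Glul, 13 were tested, 1 rose and 1 fell, against 7.86% and 6.08% of all genes tested. Glud1, which encodes glutamate dehydrogenase, was 259, 283 and 220 CPM in control replicates 1, 2 and 3 and 180, 185 and 193 CPM in NFIAcKO replicates 1, 2 and 3. It fell without overlap between groups (log2 fold change -0.45, adjusted p = 0.0094, and 0.017 with the trend removed). Slc38a1, a glutamine transporter of neurons, rose (log2 fold change 0.31, adjusted p = 0.022), but its log2 fold change was -0.01 with the trend removed. The other 11 did not pass.

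Markers of other cells that a dissected cord can hold are given as measured, and their part in the values of the 10 markers was not tested. Beside their counts, 7.86% of all genes tested rose and 6.08% fell. With the length and GC trend removed the shares were 3.82% and 3.87%. Of 8 neuronal markers 3 rose (Dcx, Rbfox3 and Elavl3), with a sum of 8415 to 8733 CPM in controls and 9474 to 9937 CPM in NFIAcKO. Of 8 microglial markers 3 fell, C1qb and P2ry12 among them, and all 8 had a log2 fold change below 0, with a sum of 112 to 121 CPM against 85.9 to 95.0 CPM. Of 6 endothelial markers 4 rose (Cdh5, Kdr, Flt1 and Pecam1) and Cldn5 fell, with a sum of 265 to 318 CPM against 341 to 365 CPM. Of 5 markers of oligodendrocyte precursors Olig1 fell, from 25.7 to 15.8 CPM (adjusted p = 0.0065), and the sums overlapped. With the length and GC trend removed, 4 neuronal markers rose, 1 microglial marker fell, 2 endothelial markers rose (Cdh5 and Kdr) and 0 fell, and Olig1 fell (adjusted p = 0.024).

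Schwann cell precursors and satellite glia of the nerve roots and ganglia also express Fabp7 and S100b. Of their 8 markers 7 were tested, 1 fell (0 with the trend removed, and 1 at an unadjusted p under 0.05) and all 7 were below 0, with sums of 43.0 to 62.7 CPM in controls and 39.2 to 50.1 CPM in NFIAcKO. Foxd3 had at most 1 count. Among sensory neuron genes 0 of 5 tested passed in edgeR, and none did in limma-voom or DESeq2 or before adjustment. Of 8 cycling-cell markers Mki67 rose (log2 fold change 0.89, adjusted p = 0.022, and 0.066 with the trend removed), and 0 of 6 erythroid and 0 of 5 tested muscle markers passed in edgeR, with none in limma-voom or DESeq2 and none under 0.05 before adjustment. Of 8 meningeal markers edgeR and DESeq2 called 0 and limma-voom 1, and 3 were under 0.05 before adjustment.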

How the data were processed

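The 3 control and 3 NFIAcKO libraries were made with Illumina Stranded mRNA Prep, per the labels' protocols. The files were deposited as raw counts, whole numbers for each symbol. Build mm10 and the tools STAR 2.6.1a, HTSeq and DESeq2 are named in the submitters' processing notes. No source used here gives the strand setting or the annotation release, so overlapping genes are uncertain. The 5 summary lines of each file (16.9 to 19.4% of its total) were kept out.

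Counts were tested in edgeR 4.0.16 under R 4.3.3 with TMM scaling, filterByExpr and robust quasi-likelihood fits, all genes being adjusted together. SE values were derived from the F statistic and the fold change. Exon lengths came from GENCODE M21 of GRCm38, and promoter windows from RefSeq. The length and GC trend was fitted per library by natural splines with 5 degrees of freedom over genes above a mean log2 CPM of 1, and was then used as an offset. Alternatives were upper quartile scaling, DESeq2 1.42.0, limma-voom 3.58.1, no filter, the replicate block, the number shared by table names, Xist as a covariate, the trend and leaving out each library. Leaving out a library with the trend removed was added after seeing the data.

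Replicate numbers come from the sample titles. Same-numbered libraries deviated together (r = 0.35, 0.40 and 0.19 over 13122 genes), so a fit with the replicate block was made. Libraries of a group differed by more than sampling noise (chi-square per degree of freedom 11.9 to 50.2), so none was merged.

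The members and the gene lists were chosen with earlier results of these data known. Genes named are the 10 members, the NFI genes, up to 4 of each list by smallest p, all called members of a list with 5 or fewer calls, the 4 reference genes of the ratios and the 5 genes nearest in pattern to Aldh1l1 and Aldoc. Gfap, Aqp4, Sox9, Mlc1, Cst3, Hes5, Ptprz1, Foxd3, Gjb6, Gjc3, S100a11 and Aldh1l2 were named after their values were seen. A few genes that this rule takes are not reported here.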

Additional observations from a re-analysis of the deposited data

How the results depend on the processing

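The calls of the 10 markers were the same with upper quartile scaling and limma-voom, and 9 were the same with DESeq2 (which gave S100b no adjusted p), without the filter, with the replicate block, with the number shared by table names as a block and with Xist as a covariate. Aldoc was the call lost in the last 4 (adjusted p = 0.0637, 0.0623, 0.055 and 0.0747), and the replicate block changed no other call among the 10. With the length and GC trend removed 4 markers fell and 0 rose, and the numbers were 4 and 0 with the replicate block as well. Without 1 library, 3 to 7 markers fell and 0 to 1 rose. With the trend removed and 1 library left out, 1 to 7 fell and 0 rose. In those 6 fits Aldh1l1 was called in 6, Mmd2 in 4, Hopx and Slc1a3 in 2 each, and Aldoc, Fabp7 and S100b in 1, the fit without control replicate 3.

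Over all genes, 1076 fell and 1392 rose. The numbers were 686 and 676 with the trend removed, 707 that rose with the replicate block added to it, and 1434 and 1057 with upper quartile scaling. Without 1 library 139 to 2466 fell and 282 to 2703 rose. With the trend removed as well, 1, 86 and 1863 fell without control replicates 1, 2 and 3 and 2, 21 and 7 without NFIAcKO replicates 1, 2 and 3, while 1, 122 and 1867 and then 2, 36 and 8 rose. The highest numbers came without control replicate 3.

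Of the 10 markers, 2 changed sign in some fits, neither called in any. Glul was at 0.00013 and 0.0022 with the trend removed and without control replicate 1 or 2. Gja1 was at 0.011 without control replicate 3, and its values without 1 library ran from -0.080 to 0.040, the highest without NFIAcKO replicate 2. Each of the 4 within-library ratios had no overlap between groups, so leaving out 1 library could not change its direction. The cause of the changes between fits was not tested. Depth limits S100b, at 17 to 94 counts per library, while the other 9 had at least 841.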

Other observations

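The closest relatives of the 10 markers were mostly not called. Of 27 paralogs 24 were tested, 3 fell and 0 rose in edgeR (0 higher at an unadjusted p under 0.05, and 0 rose by DESeq2 or limma-voom). Their median log2 fold change was -0.13. Among all genes tested 6.08% fell and 7.86% rose. The 3 paralogs that fell were calcium-binding S100 proteins: S100a16 (log2 fold change -0.43, adjusted p = 0.035), S100a10 (-0.32, adjusted p = 0.036) and S100a1 (-0.83, adjusted p = 0.044). With the trend removed none of these 3 was called, and S100a11 rose (log2 fold change 0.43, adjusted p = 0.030). The connexin genes Gjb6 and Gjc3, which astrocytes and oligodendrocytes use, stood at -0.58 and -0.90 (adjusted p = 0.099 and 0.074), beside -0.03 for Gja1. Fabp5 stood at -0.26 (adjusted p = 0.068).

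The folate enzymes around Aldh1l1 were not called. Of 14 genes tested 0 passed in edgeR, and the same was found with limma-voom and DESeq2. Before adjustment 2 genes were under 0.05 in edgeR, Mtr and Gldc, both higher in the libraries labelled NFIAcKO (log2 fold changes 0.26 and 0.25). Aldh1l2, the mitochondrial relative of Aldh1l1, was at 45.3 ± 3.08 CPM (SD, n = 3) in controls and 48.9 ± 0.956 CPM in NFIAcKO (log2 fold change 0.11, adjusted p = 0.40 in edgeR).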
